A study of Mus musculus with 24 samples.

Results

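The 10 genes described here encode the core of mitochondrial fatty acid oxidation: Cpt1a, Acadm, Acadl, Acadvl, Hadha, Hadhb, Acaa2, Etfa, Etfb and Etfdh. They were taken by symbol from the 55414 genes of the count table, and all 10 were found by their Ensembl identifiers and passed the filter on low counts. RNA was measured in splenic Tconv CD4+ cells (CD4+ CD25-), labelled TE by the submitters, of conplastic mice that share C57BL/6J nuclear DNA and carry the mtDNA of C57BL/6J (mtDNA-B6, labelled WT) or of the NZB strain (mtDNA-NZB). Cells of each haplotype were studied at rest or after 72 h with beads carrying antibodies to CD3ε and CD28, a stimulus of the antigen receptor and its costimulator, and with the cytokine IL-2. Most experiments of the study used males of 2 to 3 months, which is not stated for these libraries in particular, and no transgene or drug distinguished the groups used here. Each of the 4 groups held 6 libraries, and the resting mtDNA-NZB group was analysed with 5, because replicate 2 held only 51409 unique molecular identifiers (UMIs) and 1 count there was worth 19.5 CPM (counts scaled to a library size of 1e+06). The other 23 libraries held from 641467 to 6449395 UMIs, and within a group every pair of libraries differed by more than sampling noise. The labels do not say whether the libraries of a group came from separate mice, so p-values measure only the spread between these libraries.

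Fatty acid oxidation removes acetyl-CoA units from acyl-CoA in the mitochondrial matrix. Long-chain acyl groups enter as carnitine esters, and each round of the cycle then runs through an acyl-CoA dehydrogenase, a hydratase, a hydroxyacyl-CoA dehydrogenase and a thiolase. The dehydrogenases pass their electrons to the electron transfer flavoprotein (ETF) and from there to coenzyme Q. Quiescent and memory T cells are known for their use of this pathway, while activated effector cells are known for glycolysis and for making fatty acids.

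On activation 9 of the 10 genes rose in mtDNA-B6 cells and 7 of the 10 in mtDNA-NZB cells, and none fell. The rises were modest, from 1.22-fold for Acaa2 to 1.78-fold for Acadl in mtDNA-B6 cells and from 1.43-fold for Hadha to 2.1-fold for Etfb in mtDNA-NZB cells. Cpt1a, Acadl, Acadvl, Hadha, Acaa2, Etfa and Etfb rose in both haplotypes, Hadhb and Etfdh passed the test in mtDNA-B6 cells alone, and Acadm, the medium-chain dehydrogenase, passed in neither. No gene of the 10 differed between haplotypes at rest, after activation or in its response to activation at an adjusted p of 0.05. Genes are called here at an adjusted p up to 0.05 (edgeR's quasi-likelihood test, Benjamini-Hochberg over 10702 genes), with no fold cut-off. In mtDNA-B6 cells 48.1% of all tested genes were called on activation, with 25% higher and 23.2% lower. In mtDNA-NZB cells 54.4% were called, with 26.9% higher and 27.5% lower. The median log2 fold change of the 10 genes was 0.50 in mtDNA-B6 and 0.58 in mtDNA-NZB cells, beside 0.014 and -0.027 over all tested genes. In each haplotype 5 of the 10 genes had every activated library above every resting library, as did 17% of all tested genes in mtDNA-B6 and 15.1% in mtDNA-NZB cells. The members were chosen with earlier results of these data known, so these counts describe the genes and are not an independent test of their direction.

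**Figure D1:**
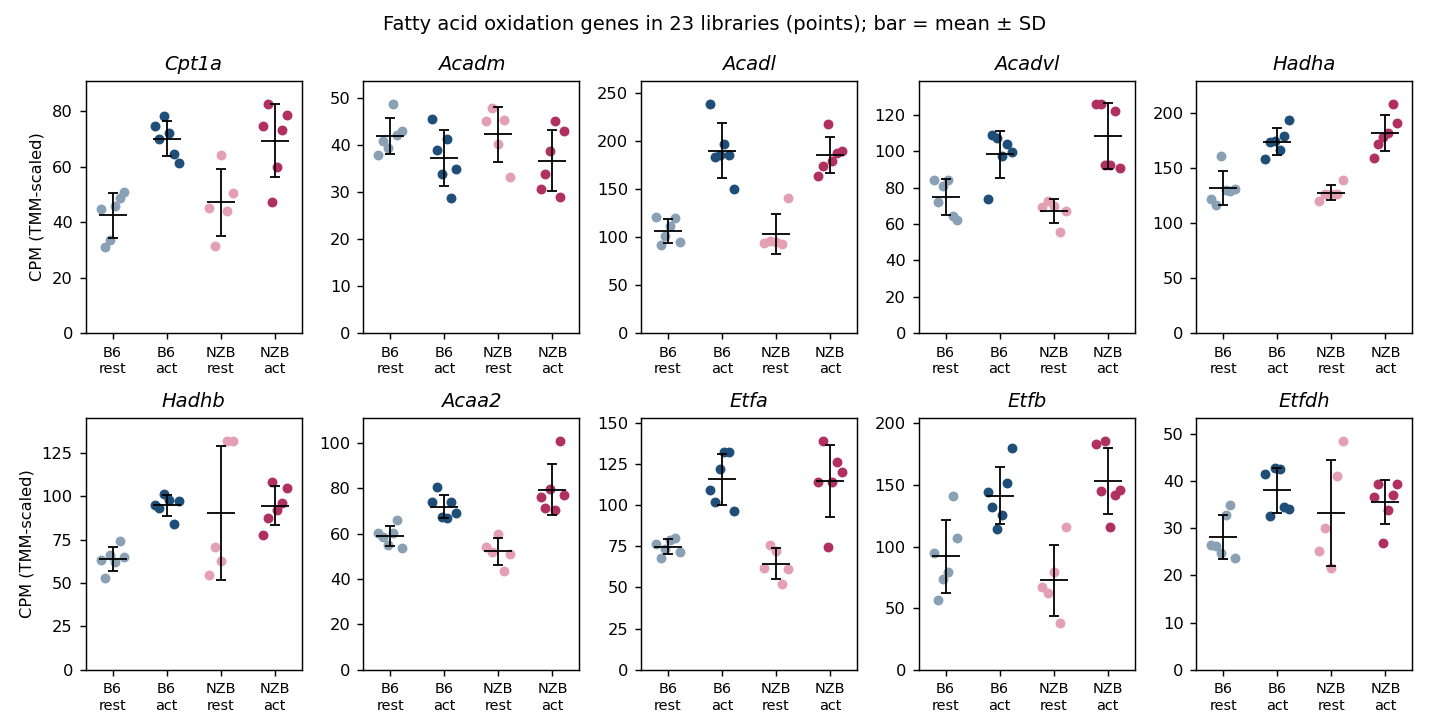
Each panel plots 1 gene, with CPM after TMM scaling on the y axis (from 0) and the 4 groups on the x axis. Points are libraries and the black bars are the mean ± SD (n = 6, and n = 5 for resting mtDNA-NZB). Activated points sit above most resting points for 9 genes in mtDNA-B6 cells, while Acadm is level or lower and Hadhb and Etfdh have 2 high resting mtDNA-NZB points.

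Summed over the 10 genes, resting mtDNA-B6 libraries held 715 ± 60.6 CPM (SD, n = 6) and activated ones 1030 ± 15.6 CPM (SD, n = 6). Resting mtDNA-NZB libraries held 700 ± 80.3 CPM (SD, n = 5) and activated ones 1060 ± 45.9 CPM (SD, n = 6). The highest resting sum in either haplotype, 839 CPM, lay below the lowest activated sum, 985 CPM. In bulk RNA a share of this kind cannot tell fewer cells of a type from less RNA per cell.

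The cells were checked against marker genes. All 6 T cell markers listed (Cd3e, Cd3d, Cd3g, Cd4, Trac, Lck) were detected in each group, with a summed level of 2870 to 4840 CPM over the 23 libraries, and the 2 Treg markers summed to at most 45.4 CPM. Of 5 activation markers, the summed level ran from 224 to 256 CPM in resting and from 386 to 651 CPM in activated mtDNA-B6 libraries, and from 234 to 377 CPM and from 382 to 862 CPM in mtDNA-NZB libraries. Il2ra, Mki67 and Tnfrsf4 had higher means after activation in both haplotypes, and Myc (128 and 76.5 CPM, 114 and 101 CPM) and Cd44 (36 and 30.4 CPM, 49.4 and 24.9 CPM) had lower ones. RNA of other cells moved with activation. The 6 B cell markers summed to 9520 to 15800 CPM in resting and 3840 to 8460 CPM in activated mtDNA-B6 libraries, and to 7050 to 17900 CPM and 1450 to 9030 CPM in mtDNA-NZB libraries. The 6 monocyte and macrophage markers fell from a median of 1740 to 244 CPM in mtDNA-B6 and from 1350 to 257 CPM in mtDNA-NZB libraries, with ranges that did not overlap. The medians of the neutrophil list (1750 to 16.1 CPM and 377 to 35.5 CPM) and of the erythroid list (1280 to 26.4 CPM and 207 to 33.2 CPM) were also lower after activation. The 2 CD8 markers were higher, with medians of 67 and 278 CPM in mtDNA-B6 and of 63 and 165 CPM in mtDNA-NZB libraries. Of the 3 NK markers, Nkg7 had a higher mean after activation (141 and 290 CPM in mtDNA-B6, 125 and 199 CPM in mtDNA-NZB libraries), while Klrb1c had a lower one (8.62 and 2.13 CPM, 7.98 and 1.13 CPM) and Ncr1 was at most 1.08 CPM in any library. The 3 platelet markers had medians of 14.3 and 140 CPM and of 13.2 and 98.7 CPM, with Ppbp at 0 in resting mtDNA-B6 libraries. Every other marker of these lists had counts in each group. The part of other cells in the changes of the 10 genes was not tested. Resting mtDNA-NZB replicate 6 stood apart, with 12200 CPM of neutrophil markers beside 224 to 456 CPM in the 4 others and with the lowest T cell sum of all libraries. Without it the same 7 genes were called on activation in mtDNA-NZB cells.

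Cpt1a encodes the outer membrane carnitine palmitoyltransferase, the rate-limiting and malonyl-CoA-inhibited step of long-chain acyl entry. It lies on chromosome 19 (GRCm39, 3371853 to 3437996, plus strand). Its level in resting mtDNA-B6 libraries ran from 31.0 CPM through a median of 45.3 CPM to 51.0 CPM, and in activated ones from 61.3 through 71.2 to 78.3 CPM. The groups did not overlap, and the rise of 0.72 ± 0.15 (log2, SE) had an adjusted p of 0.000422. The 5 resting mtDNA-NZB libraries held 45.3, 31.3, 64.4, 44.0 and 50.7 CPM of Cpt1a (replicates 1, 3, 4, 5 and 6), and the activated ones ran from 47.3 through 74.0 to 82.7 CPM. Replicates 4 and 6 at rest lay within the activated range, and the rise of 0.55 ± 0.16 (log2, SE; adjusted p = 0.00619) did not differ detectably from that in mtDNA-B6 cells (difference of responses -0.17, 95% interval -0.64 to 0.30). With the label number of the libraries as a block the Cpt1a call in mtDNA-NZB cells was lost (edgeR, adjusted p = 0.0558). It was kept with the replicate number of the titles as a block.

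The 3 acyl-CoA dehydrogenases did not move together. Acadl, the long-chain dehydrogenase (chromosome 1, 66868267 to 66902633, minus strand), showed the largest rise of the 10 genes in mtDNA-B6 cells. Its level there ran from 91.9 to 121 CPM at rest (mean 107 ± 12.6, SD, n = 6) and from 150 through 186 to 239 CPM after activation, with no overlap. The resting mtDNA-NZB libraries held 93.9, 95.8, 95.1, 92.7 and 141 CPM of Acadl, and the activated ones ran from 164 through 184 to 218 CPM. Replicate 6 was the high resting library and still lay below all activated ones. The Acadl rise was 0.83 ± 0.12 in mtDNA-B6 (adjusted p = 2.82e-06) and 0.84 ± 0.12 in mtDNA-NZB cells (log2, SE; adjusted p = 4.15e-06), and the difference of the 2 responses was 0.01 (95% interval -0.34 to 0.36).

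Acadvl, the very-long-chain dehydrogenase of the inner membrane (chromosome 11, 69900853 to 69906270, minus strand), rose by 0.40 ± 0.12 in mtDNA-B6 (adjusted p = 0.00717) and by 0.68 ± 0.13 in mtDNA-NZB cells (log2, SE; adjusted p = 6.95e-05). In mtDNA-B6 libraries Acadvl ran from 62.1 through 76.6 to 84.4 CPM at rest and from 73.5 through 102 to 109 CPM when activated, and activated replicate 1 alone lay within the resting range. In mtDNA-NZB libraries it held 69.4, 72.7, 69.8, 55.6 and 67.0 CPM at rest and from 90.8 through 107 to 126 CPM when activated, with no overlap. Its last 1000 bases overlap Dvl2 on the other strand, and the sources used here do not say that counting used strand. Dvl2 moved the other way, by -0.22 and -0.40 in log2, as measured in the same fit.

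Acadm, the medium-chain dehydrogenase (chromosome 3, 153627989 to 153650317, minus strand), was the only gene of the 10 with a negative estimate in both haplotypes. In mtDNA-B6 libraries it ran from 37.8 through 41.4 to 48.7 CPM at rest and from 28.7 through 36.9 to 45.4 CPM when activated. In mtDNA-NZB libraries it held 45.0, 47.9, 40.2, 45.3 and 33.1 CPM at rest and from 28.9 through 36.3 to 45.0 CPM when activated. The groups overlapped in both haplotypes. The log2 difference was -0.17 (95% interval -0.43 to 0.097, adjusted p = 0.283) in mtDNA-B6 and -0.19 (-0.47 to 0.091, adjusted p = 0.238) in mtDNA-NZB cells. A set of 21 libraries, which leaves out resting and activated mtDNA-NZB replicate 6 as well, was inferred to be that of the study. The study's methods do not name it, and the inference rests on matching 2781 means (largest relative difference 0.00475). Over these 21 libraries Acadm was called lower in mtDNA-NZB cells (-0.375, adjusted p = 0.0277).

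The unequal change of the long- and medium-chain dehydrogenases was measured within each library as the ratio of Acadl to Acadm counts, chosen with the values known. In mtDNA-B6 cells the ratio ran from 2.22 through 2.43 to 3.21 at rest and from 4.29 through 5.02 to 6.48 when activated. In resting mtDNA-NZB libraries it was 2.09, 2.00, 2.36, 2.05 and 4.26 (replicates 1, 3, 4, 5 and 6), and in activated ones it ran from 3.99 through 5.22 to 6.49. Replicate 6 was the only resting library within an activated range. The ratio was 2.02-fold higher on activation in mtDNA-B6 (exact permutation test, two-sided, p = 0.00216, adjusted over 12 ratio tests 0.0259) and 2.09-fold higher in mtDNA-NZB cells (exact p = 0.00433, adjusted 0.026). Between haplotypes it differed by 0.96-fold at rest (exact p = 0.797) and 1.00-fold when activated (exact p = 0.974). Such a ratio shows unequal change and not which gene changed.

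**Figure D2:**
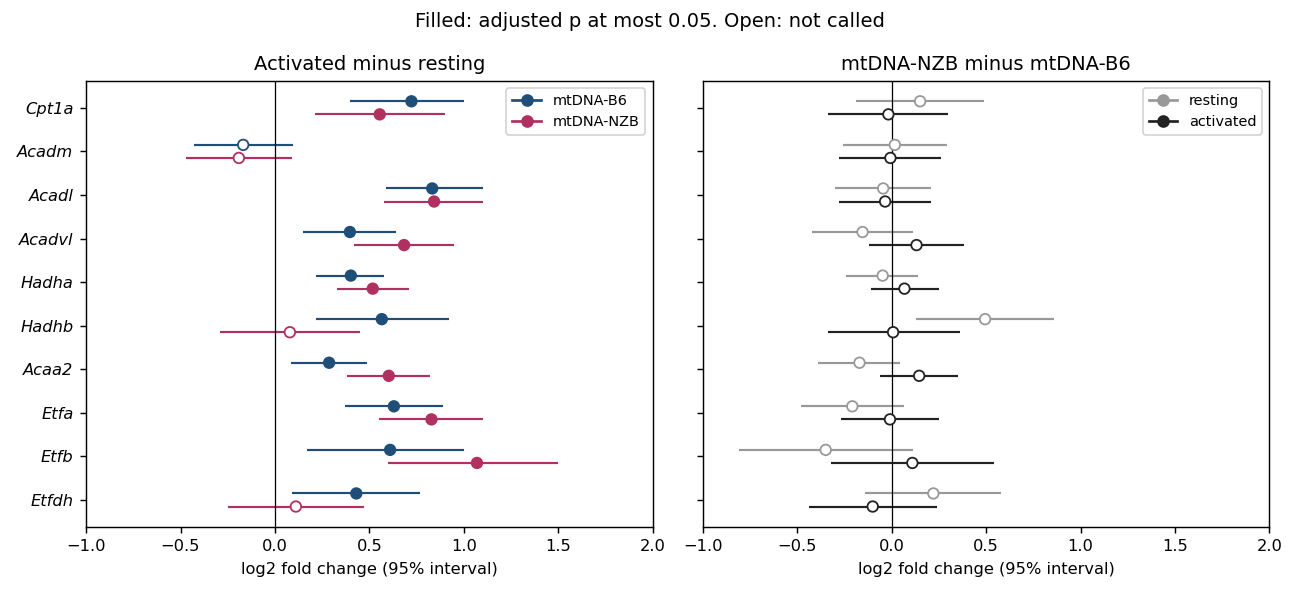
Log2 fold changes of the 10 genes, activated minus resting in each haplotype (left) and mtDNA-NZB minus mtDNA-B6 in each state (right). Points are estimates, lines are 95% intervals and filled points have an adjusted p of at most 0.05. On the left 9 blue and 7 red points are filled and lie right of 0, and on the right no point is filled.

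Hadha and Hadhb encode the α and β subunits of the mitochondrial trifunctional protein, which carries the hydratase and hydroxyacyl-CoA dehydrogenase (α) and the thiolase (β) for long-chain substrates. They are neighbours on chromosome 5 and are read away from each other, Hadha from the minus strand (30323302 to 30360187) and Hadhb from the plus strand (30359204 to 30389997). In RefSeq's promoter table (GRCm38.p6), which gives 300 bases from 250 before to 50 after each start, their promoters share 228 bases. The shared stretch holds a GC box, GGGCGG, printed here from the Hadhb strand because both genes count it as theirs; capitals mark the motif.
Hadha and Hadhb, chr5:30155151-30155180, plus strand: cctccgaggagaGGGCGGagtgtctgactt

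Hadha rose by 0.40 ± 0.09 in mtDNA-B6 (adjusted p = 0.000402) and by 0.52 ± 0.09 in mtDNA-NZB cells (log2, SE; adjusted p = 3.71e-05). In mtDNA-B6 libraries it ran from 116 through 130 to 161 CPM at rest and from 158 through 174 to 193 CPM when activated, and resting replicate 3 was the high one. In mtDNA-NZB libraries it held 120, 126, 126, 126 and 139 CPM at rest and from 159 through 180 to 208 CPM when activated. The mtDNA-NZB groups did not overlap. Garem2, which overlaps the last 1000 bases of Hadha on the other strand, had 2 counts in the 23 libraries.

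Hadhb rose by 0.57 ± 0.17 (log2, SE; adjusted p = 0.00688) in mtDNA-B6 cells, from 52.6 through 64.1 to 74.0 CPM at rest to 83.9 through 96.0 to 101 CPM when activated, with no overlap. In mtDNA-NZB cells its log2 difference was 0.08 (95% interval -0.29 to 0.45, adjusted p = 0.724). The 5 resting mtDNA-NZB libraries held 54.3, 71, 62.5, 132 and 132 CPM of Hadhb, and the activated ones ran from 77.5 through 94.2 to 108 CPM. Resting replicates 1, 3 and 4 lay below and replicates 5 and 6 above all activated libraries. Leaving out either replicate 5 or replicate 6 gave a log2 difference of 0.26 (adjusted p = 0.196 and 0.194). The response of Hadhb differed by -0.49 between haplotypes (95% interval -0.99 to 0.019, unadjusted p = 0.0549, adjusted p = 0.345). A call in mtDNA-B6 alone was therefore not shown to be a difference between the haplotypes.

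Hadha did not share the high level of Hadhb in those 2 libraries. The ratio of Hadhb to Hadha counts was 0.454, 0.565, 0.495, 1.05 and 0.953 in resting mtDNA-NZB replicates 1, 3, 4, 5 and 6. It ran from 0.411 to 0.572 in resting and from 0.468 to 0.598 in activated mtDNA-B6 libraries, and from 0.463 to 0.609 in activated mtDNA-NZB libraries. Replicates 5 and 6 thus had the 2 highest ratios of the 23 libraries, while the resting groups overlapped (1.36-fold, exact permutation p = 0.0974, adjusted over 12 ratio tests 0.292).

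**Figure D3:**
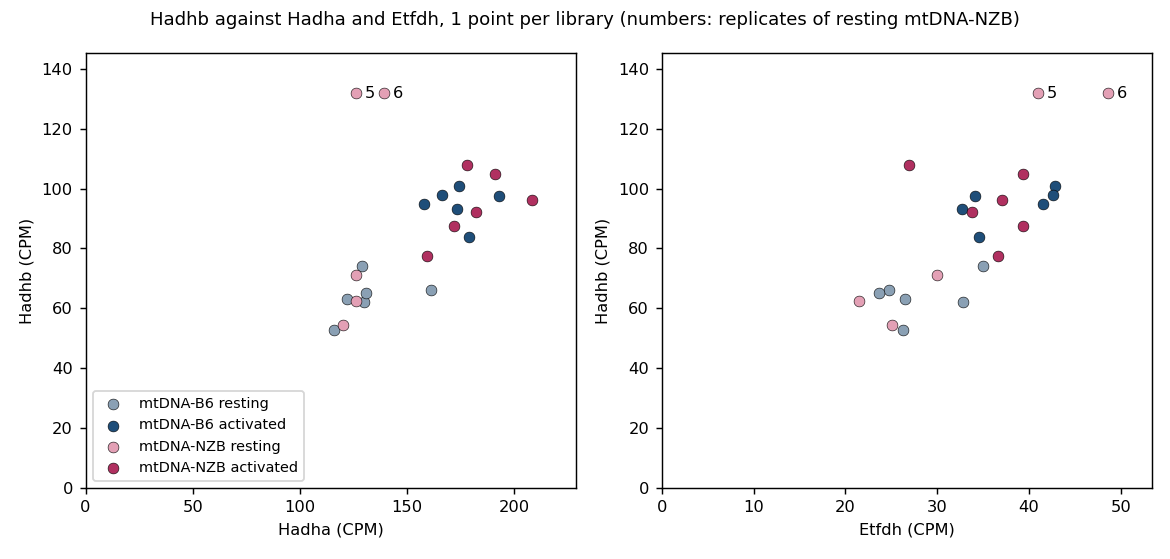
Hadhb CPM (y axis) against Hadha CPM (left) and Etfdh CPM (right), 1 point per library, coloured by group, with axes from 0. The points numbered 5 and 6 are resting mtDNA-NZB replicates 5 and 6, both at 132 CPM of Hadhb. They lie among the resting libraries for Hadha (126 and 139 CPM) and at the upper end for Etfdh (41.0 and 48.6 CPM).

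Acaa2 encodes the matrix thiolase that closes the cycle for medium-chain substrates (chromosome 18, 74911948 to 74953492, plus strand). In mtDNA-B6 libraries it ran from 53.6 through 59.2 to 65.8 CPM at rest and from 66.9 through 71.4 to 80.4 CPM when activated. In mtDNA-NZB libraries it held 54.3, 52.1, 60, 43.6 and 51.1 CPM at rest and from 70.3 through 76.6 to 101 CPM when activated. Neither haplotype showed overlap. The rise was 0.29 ± 0.10 in mtDNA-B6 (adjusted p = 0.0173) and 0.60 ± 0.10 in mtDNA-NZB cells (log2, SE; adjusted p = 3.24e-05). The difference of responses was 0.32 (95% interval 0.018 to 0.62), with an unadjusted p of 0.0359 and an adjusted p of 0.295. It was the only one of the 10 at an unadjusted p under 0.05, as were 15% of all tested genes. The mtDNA-B6 call of Acaa2 was lost in 5 of 11 other analyses, among them DESeq2 and the fit with library set as a term, with adjusted p-values up to 0.225, and when activated mtDNA-B6 replicate 1 or 5 was left out.

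Etfa and Etfb encode the α and β subunits of ETF. Etfa (chromosome 9, 55361714 to 55419792, minus strand) rose by 0.63 ± 0.12 in mtDNA-B6 (adjusted p = 0.000154) and by 0.83 ± 0.13 in mtDNA-NZB cells (log2, SE; adjusted p = 1.05e-05). It ran from 67.8 through 74.9 to 79.7 CPM in resting and from 96.2 through 116 to 132 CPM in activated mtDNA-B6 libraries, with no overlap. Resting mtDNA-NZB libraries held 61.7, 75.6, 72.2, 51.8 and 60.9 CPM of Etfa and activated ones from 74.6 through 117 to 139 CPM. Activated replicate 3, the lowest, was the only activated library within the resting range.

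Etfb (chromosome 7, 43093493 to 43107224, plus strand) had the largest rise of the 10 genes in mtDNA-NZB cells, 1.07 ± 0.22 (log2, SE; adjusted p = 0.000332), and rose by 0.61 ± 0.21 in mtDNA-B6 cells (adjusted p = 0.0183). Its resting libraries were scattered: those of mtDNA-B6 ran from 56.4 through 87.0 to 141 CPM and resting mtDNA-NZB libraries held 67.2, 62.2, 79.6, 38.0 and 116 CPM. Activated libraries ran from 114 through 138 to 180 CPM in mtDNA-B6 and from 116 through 146 to 186 CPM in mtDNA-NZB cells. Only the mtDNA-NZB groups stood apart, by less than 1 CPM between resting replicate 6 and activated replicate 4. The responses differed by 0.46 (95% interval -0.18 to 1.1, adjusted p = 0.483). The mtDNA-B6 call was lost without a filter on low counts (adjusted p = 0.0548). Etfbl and Mir7051, which overlap the last 1000 bases of Etfb on the same strand, had 0 counts. The ratio of Etfb to Etfa counts did not pass the test in any of 4 comparisons (exact permutation test, adjusted p from 0.628 to 0.951).

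Etfdh encodes the ETF-coenzyme Q oxidoreductase, which hands the electrons of fatty acid oxidation to the respiratory chain (chromosome 3, 79511086 to 79536807, minus strand). It ran from 23.7 through 26.4 to 35.0 CPM in resting and from 32.7 through 38.1 to 42.8 CPM in activated mtDNA-B6 libraries, a rise of 0.43 ± 0.16 (log2, SE; adjusted p = 0.0305). Resting mtDNA-NZB libraries held 25.1, 30.0, 21.5, 41.0 and 48.6 CPM and activated ones from 26.9 through 36.9 to 39.4 CPM, with a log2 difference of 0.11 (95% interval -0.25 to 0.47, adjusted p = 0.609). As for Hadhb, replicates 5 and 6 were the 2 highest resting mtDNA-NZB libraries and lay above every activated one. The responses in the haplotypes differed by -0.32 (95% interval -0.82 to 0.18, adjusted p = 0.539). The mtDNA-B6 call of Etfdh was lost in 6 of 11 other analyses and when any of 7 mtDNA-B6 libraries was left out (activated replicates 1, 3 and 4 and resting replicates 1, 2, 3 and 6), with adjusted p up to 0.2. Ppid overlaps the last 1000 bases of Etfdh on the other strand and held 36.5 and 55.6 CPM in resting mtDNA-NZB replicates 5 and 6, beside a group mean of 38.1 CPM. The promoter of Etfdh holds the palindromic NRF1 motif, GCGCA followed by TGCGC, at positions -128 to -119 from its RefSeq start, printed as the only such match among the members; capitals mark it.
Etfdh, chr3:79628876-79628905 (GRCm38.p6), minus strand: tgcttctaggGCGCATGCGCacacgcgaga

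RefSeq's promoter table matched 9 of the 10 genes. Both strands were searched for motifs of factors known for mitochondrial genes. The NRF1 motif stood in 0.971% of 32851 promoters and in 1 of the 9, Etfdh. The half-site AAGGTCA of estrogen-related receptors stood in 4.72% of promoters and in 1 of the 9, Acadm, which was called in neither haplotype. Its longer form TNAAGGTCA (1.28% of promoters) and the PPAR direct repeat, 2 copies of AGGTCA parted by 1 base (0.0396%), were in none. The GC box was in 6 of the 9 and in 35.7% of all promoters, and the E-box CACGTG was in none and in 7.15%. AAGGTCA overlaps its longer form, and a missing match says only that these letters are not in this window. In the Acadm window the capitals read AAGGTCA on the other strand.
Acadm, chr3:153944864-153944893 (GRCm38.p6), minus strand: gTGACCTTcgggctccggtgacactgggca

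Between haplotypes, none of the 10 genes was called at rest, where 3.55% of all tested genes were called, or after activation, where 0.00934% were called. By edgeR 1 of the 10 had an unadjusted p under 0.05 at rest, beside 21.9% of all genes, and 0 after activation, beside 3.29%, and DESeq2 also called 0 in both states. Estimates at rest ran from -0.35 (Etfb) to 0.49 (Hadhb) in log2, with 4 positive and 6 negative. The resting difference of Hadhb had an unadjusted p of 0.00925 and an adjusted p of 0.0993 (95% interval 0.13 to 0.86). It passed when resting mtDNA-NZB replicate 1 or replicate 4, both low in Hadhb, was left out (adjusted p = 0.0222 and 0.0426), and it was 0.32 without replicate 5 or 6. After activation the estimates ran from -0.10 (Etfdh) to 0.14 (Acaa2), and the 95% intervals of all 10 lay between -0.44 and 0.54. The 5 positive and 5 negative estimates were centred on 0 (median -0.00014). At rest the intervals reached from -0.81 to 0.86, with estimates further from 0. Precision was alike in the 2 states, with standard errors of 0.086 to 0.21 after activation and 0.09 to 0.22 at rest. No gene of the 10 was called for the difference of responses, where 0% of all tested genes were called and 1602 genes had an unadjusted p under 0.05. The activation and haplotype comparisons share libraries and are not independent of each other.

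Across all libraries 9 of the 10 genes were positively correlated with each other and Acadm negatively with each of them (r from -0.64 to -0.27). Across the 23 libraries the median correlation of log2 CPM over the 45 pairs of genes was 0.6, from -0.64 to 0.83. After the group means were removed it was 0.023, and 1 pair was above 0.5. That pair was Hadhb and Etfdh (r = 0.68), and without the resting mtDNA-NZB libraries its r was 0.077 over 18 libraries, whereas Hadhb and Hadha gave 0.36 and 0.44. These correlations are descriptions, with libraries that share state and haplotype in the first value. The genes most like Etfb over the 23 libraries were Cox17 (r = 0.957), a copper chaperone of cytochrome oxidase, Cnpy2 (0.934) and Tk1 (0.931), the cytosolic thymidine kinase. Those most like Hadha were Tssc4 (0.933), Eif3c (0.918), a translation initiation factor, and Arpp19 (0.915), and those most like Cpt1a were Atp6v1a (0.842), a subunit of the vacuolar proton pump, G2e3 (0.84) and Sucla2 (0.838), a subunit of succinyl-CoA ligase. An r above 0.7 was reached by 12.9% of genes for Etfb, 15.2% for Hadha and 8.18% for Cpt1a.

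Libraries fell into 3 sets of 8 by reads per UMI (1.88 to 1.96, 2.11 to 2.24 and 2.68 to 2.8), and of the 4 groups only activated mtDNA-NZB was divided evenly among them, with 2 libraries in each. In mtDNA-B6 cells state and set were largely confounded. The set of 1.88 to 1.96 held 5 activated and 0 resting mtDNA-B6 libraries, and that of 2.68 to 2.8 held 0 and 2. Within the only set with both states of mtDNA-B6 (1 activated and 4 resting libraries) 9 of the 10 genes were higher when activated. That comparison rests on 1 activated library. In mtDNA-NZB cells 9, 9 and 7 of the 10 were higher within the 3 sets, with median log2 differences of 0.68, 0.63 and 0.48. In the set of 2.68 to 2.8 reads per UMI, which holds resting mtDNA-NZB replicates 4, 5 and 6, Hadhb and Etfdh were lower when activated (-0.17 and -0.15). The fit with library set as a term called 7 of the 10 in each haplotype.

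The other genes of fatty acid metabolism were given by lists, of which 60 of 77 genes passed the filter. Activation raised 15 and lowered 13 of them in mtDNA-B6 cells and raised 17 and lowered 12 in mtDNA-NZB cells. These are 25% and 21.7% of the 60 genes beside 25% and 23.2% of all tested genes, and 28.3% and 20% beside 26.9% and 27.5%. Of 10 tested genes of fatty acid synthesis, 7 were called higher and 1 lower in mtDNA-B6, and 5 higher and 1 lower in mtDNA-NZB cells (median log2 fold changes 0.70 and 0.42). Scd2, a stearoyl-CoA desaturase, rose by 1.56 ± 0.14 and 1.76 ± 0.15 (log2, SE) and Elovl6, a fatty acid elongase, by 1.56 ± 0.24 and 1.40 ± 0.27, in mtDNA-B6 and mtDNA-NZB cells. Acss2, which makes cytosolic acetyl-CoA from acetate, fell by 0.85 and 0.79 on the log2 scale. Of 5 lipolysis genes, 3 and 4 fell and none rose (medians -0.47 and -0.50). Under other analyses the number that fell went down to 1 in each haplotype. Mgll, monoacylglycerol lipase, fell by 2.15 and 1.78 and Lipa, lysosomal acid lipase, by 0.41 and 0.50. The Lipa calls were lost with the label number as a block, and in mtDNA-B6 also with library set as a term or without resting replicate 3. The Mgll call in mtDNA-B6 cells was lost with library set as a term. In mtDNA-NZB cells it was lost without resting replicate 6, the library rich in neutrophil markers, and over the 21 libraries.

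Of 7 tested genes of fatty acid uptake and activation, the calls were 2 higher and 3 lower in mtDNA-B6, and 2 higher and 2 lower in mtDNA-NZB cells (medians 0.46 and -0.23). Fabp5, a fatty acid binding protein, rose from 9.86 ± 2.23 to 26.8 ± 8.74 CPM (SD, n = 6) in mtDNA-B6 and from 7.79 ± 4.17 (n = 5) to 30.0 ± 9.46 CPM (n = 6) in mtDNA-NZB cells. Acsl5, an acyl-CoA synthetase, rose by 1.05 and 1.43 in log2, while its relative Acsl1 fell by 1.66 and 1.11 and Slc27a1, a fatty acid transporter, by 1.21 and 0.94. The mtDNA-NZB calls of Acsl1 and Slc27a1 had adjusted p-values of 0.0175 and 0.0459 and were lost in 5 of 11 and 7 of 9 other analyses. That of Acsl1 was also lost without resting replicate 6, and that of Slc27a1 held without 14 of the 23 libraries. The mtDNA-B6 call of Slc27a1 was lost with library set as a term. Of 4 tested genes of the carnitine shuttle, mtDNA-B6 cells had 1 higher and 1 lower, and mtDNA-NZB cells 2 higher and 1 lower (medians -0.10 and 0.30). Slc25a20, the carnitine-acylcarnitine carrier of the inner membrane, rose from 23.8 to 34 CPM and from 23.2 to 36.6 CPM (0.51 ± 0.13 and 0.64 ± 0.15 in log2, SE). Slc22a5, the plasma membrane carnitine transporter, fell by 1.07 and 1.05, at means of at most 4.38 CPM. Its calls were lost in 2 of 9 other analyses in mtDNA-B6 and in 2 of 10 in mtDNA-NZB cells, and there also without resting replicate 3 or 4.

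**Figure D4:**
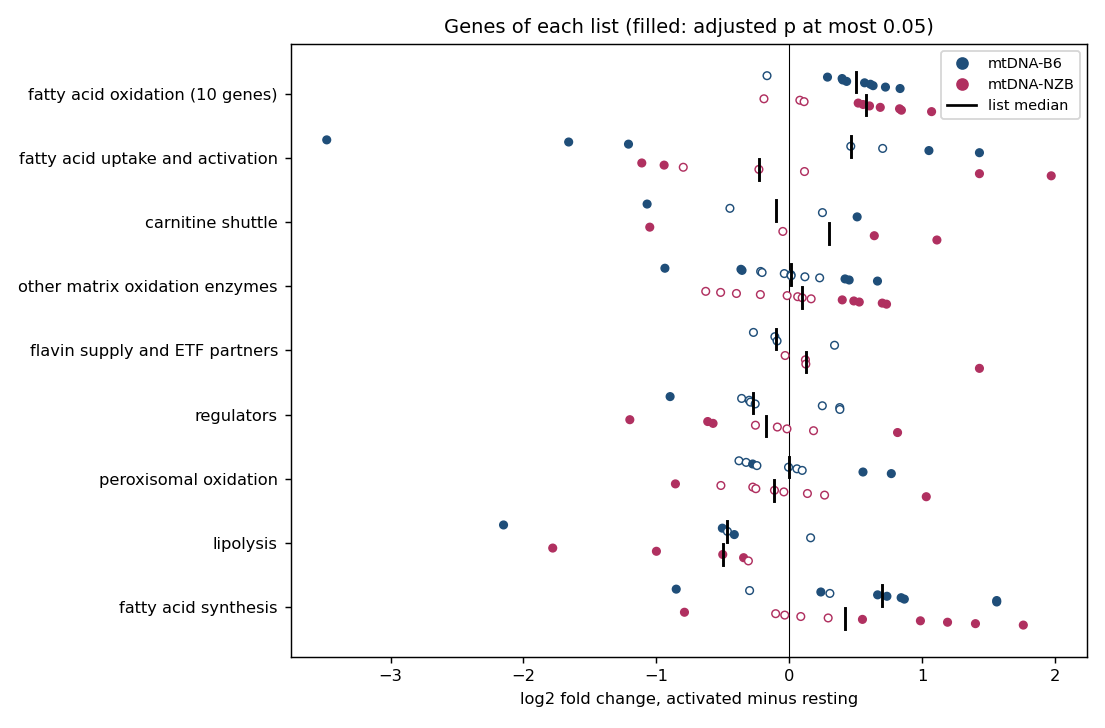
Log2 fold change on activation (x axis) of each tested gene of 9 lists (y axis), blue for mtDNA-B6 and red for mtDNA-NZB cells, filled where the adjusted p is at most 0.05, with the list median as a black bar. The medians of the 10 fatty acid oxidation genes are 0.50 and 0.58, those of lipolysis -0.47 and -0.50, and the medians of the other matrix enzymes lie near 0 (0.012 and 0.097).

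The 13 other tested enzymes of the matrix were mixed, with 3 higher and 3 lower in mtDNA-B6 cells, and 5 higher and 0 lower in those with mtDNA-NZB. Acat1, the acetoacetyl-CoA thiolase, rose by 0.66 and 0.73 and Eci2, an enoyl-CoA isomerase, by 0.45 and 0.70 in log2. Peroxisomal oxidation, which handles very long and branched chains, had 2 up and 1 down and 1 up and 1 down of 9 tested genes, and Hsd17b4, its bifunctional enzyme, rose from 38.7 to 66.0 CPM and from 32.6 to 65.9 CPM. Of 8 tested regulators, only 1 was called in mtDNA-B6 cells, lower, while mtDNA-NZB cells had 1 higher and 3 lower. Ppargc1b, a coactivator of mitochondrial genes, fell by 0.90 ± 0.22 and 1.2 ± 0.24 (log2, SE). Ppara, Pparg, Ppargc1a and Acacb did not pass the filter on low counts. Of the 4 genes of flavin supply and ETF partners, 0 were called in mtDNA-B6 and 1 rose in mtDNA-NZB cells.

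Of the 60 tested list genes, 3 were called between haplotypes at rest. With mtDNA-NZB 1 was higher (1.67%) and 2 were lower (3.33%), beside 3.55% of all tested genes called in either direction. Cpt2, the inner membrane partner of Cpt1a that releases acyl-CoA in the matrix, held 9.64, 9.78, 11.1, 5.18 and 5.31 CPM in resting mtDNA-NZB libraries (replicates 1, 3, 4, 5 and 6) and 9.91 to 16.2 CPM in resting mtDNA-B6 libraries (-0.70 in log2, adjusted p = 0.0417). Replicates 5 and 6 were the lowest, and without either the call was lost. Etfbkmt, a methyltransferase that acts on ETF β, held 7.39, 3.58, 4.35, 3.88 and 4.90 CPM in resting mtDNA-NZB and 8.24 to 11.6 CPM in resting mtDNA-B6 libraries, with no overlap (-0.98, adjusted p = 0.0261). Its values are low, with a highest count of 71 in any library. Ppard, a nuclear receptor known to drive fatty acid oxidation genes, held 41.8, 34.2, 37.8, 82.8 and 54.8 CPM in resting mtDNA-NZB and 26.5 to 34.4 CPM in resting mtDNA-B6 libraries (0.74, adjusted p = 0.0324), and replicates 5 and 6 were again the extremes. When each of the 23 libraries was left out in turn, Cpt2, Etfbkmt and Ppard were called in 13, 20 and 18 cases, and without resting mtDNA-NZB replicate 5 none of the 3 was called. All 3 calls were lost when library set was a term and in the fit of the 2 resting groups alone. Over 10 other analyses, these 2 among them, Cpt2, Etfbkmt and Ppard were called in 4, 8 and 6. For the difference of responses each of the 3 had an adjusted p of 0.177, and none was called between activated groups.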

How the data were processed

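RNA of Tconv CD4+ cells was measured by bulk MARS-seq, in which UMIs mark single molecules and only transcript 3′ ends are read. Per the labels and the methods of the study, the authors trimmed reads with cutadapt, dropped those under 30 bases, mapped the rest with STAR to 3′ regions (1000 bases) of GRCm39 with Ensembl 106, counted genes with HTSeq, counted each UMI once and corrected the totals for saturation. They deposited these whole-number counts, which are not scaled, and a second table of larger counts that served as an alternative. Input was 60 ng of RNA in the methods and 30 ng in the labels. Because only transcript ends were counted, genes that overlap there can share reads.

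Groups came from the labels. Of the columns of larger counts, 1 could be tied to no sample and was left out. The members and lists were chosen with earlier results of these data known. The 23 libraries were scaled by TMM, filtered with filterByExpr (minimum count 10) and fitted together with edgeR 4.0.16 (quasi-likelihood test, Benjamini-Hochberg over 10702 genes) in R 4.3.3. Intervals of 95% use 19 residual degrees of freedom. The log2 CPM used for correlations had a prior count of 2, ratios of counts were tested by exact permutation in Python, and the fit was tested on simulated data. Named genes are the 10 members and, from each list, up to 2 genes with the largest rise and 2 with the largest fall among those called in both haplotypes, every list gene called between haplotypes, and the 3 genes most like Cpt1a, Hadha and Etfb. Coordinates are from GENCODE M39 (GRCm39), and promoters from RefSeq (GRCm38.p6). Alternatives were all 24 libraries, the 21 libraries inferred to be those of the study, DESeq2 1.42.0 size factors and test, no filter and a stricter filter (30). Others were the second table, 2 groups at a time, replicate blocks, library set as a term, a fold cut-off and leaving out each library. Genes outside the annotation held 0.0272% of counts.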

Additional observations from a re-analysis of the deposited data

Results flagged for a closer look

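Of 40 sets of values (10 genes in 4 groups), 4 held a library far from the rest of its group, where chance gives about 1 in 20. Acadl was at 141 CPM in resting mtDNA-NZB replicate 6, beside 92.7 to 95.8 CPM in the 4 others. Acadvl was at 73.5 CPM in activated mtDNA-B6 replicate 1, beside 97.4 to 109 CPM in the others. Hadha was at 161 CPM in resting mtDNA-B6 replicate 3, beside 116 to 131 CPM. Acaa2 was at 101 CPM in activated mtDNA-NZB replicate 5, beside 70.3 to 79.8 CPM. Each of the 4 genes kept its call on activation in that haplotype when the library named for it was left out.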

How the results depend on the processing

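Without a fold cut-off 9 and 7 of the 10 genes were called on activation in mtDNA-B6 and mtDNA-NZB cells; with a log2 cut-off of 1 the counts were 0 and 1 (Etfb). The other alternatives gave 6 to 9 and 6 to 8, with 6 in mtDNA-B6 cells without a filter and 7 with DESeq2, and leaving out each library gave 7 to 9 and 7 in every case. At rest 0 genes were called between haplotypes, and leaving out single libraries gave 0 to 1 (Hadhb, without resting mtDNA-NZB replicate 1 or 4). No call changed direction. Of results not called, 13 changed the sign of their estimate in at least 1 alternative.

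Numbers in the labels are shared by 9 pairs of activated and resting libraries of a haplotype. The study's methods describe splitting the cells taken from mice of each haplotype into a resting and an activated part. A shared number may therefore mark a shared mouse, which the labels do not state. Deviations of same-numbered libraries correlated from -0.15 to 0.24, with 3 of 9 above 0.1 and 2 of 9 closest to their own number. Low correlations do not exclude a shared mouse, so this check could not decide on pairing. The main fit did not use the number. A replicate block by label number left 8 and 6 genes called on activation and 0 for the difference of responses, and a block by title number 9 and 7. The block by label number was not run for the haplotype comparisons. Counts per library, from 21 to 1296 for the 10 genes, limit the precision of the smallest libraries.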
